A study of Mus musculus with 6 samples.

Results

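The SLC25 carriers are the largest family of transporters in the mitochondrial inner membrane, and their messenger RNA (mRNA) was compared between PARP2 KO and WT pancreas of Ela-myc mice. The genes were taken by name, as every gene of the deposited count table whose symbol is Slc25a followed by a number, which gave 46 of the 29721 genes listed. The name rule used no measured value, but the family was chosen with earlier results of these data known. Not every product sits in that membrane: Slc25a17 encodes a peroxisomal protein and Slc25a46 a protein of the outer mitochondrial membrane, whereas Ucp1, Ucp2, Ucp3, Mtch1 and Mtch2 belong to the family under other symbols and are given apart. All 6 mice were 3 months old and carried Ela-myc, a transgene in which the elastase promoter drives Myc in the acinar cells that secrete digestive enzymes, so the controls carried it too. There were 3 animals of genotype WT and 3 of genotype PARP2 KO, each sequenced as 1 library. The tissue label is pancreas, while the extraction protocol speaks of tumours, and no label says whether a given piece held tumour.

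Each SLC25 carrier is a single protein with a repeated pair-of-helices fold that binds 1 small molecule at a time and swaps or moves it across a membrane that is otherwise closed to it. Between them they let ADP, ATP and phosphate in and out for oxidative phosphorylation, exchange malate, aspartate and citrate between cytosol and matrix, and bring in cofactors, amino acids, fatty acylcarnitines and iron. They are made in the cytosol and reach the inner membrane through the TOM pore, the small TIM chaperones and the TIM22 complex. The acinar cell has a very high rate of protein synthesis, which uses ATP.

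Library totals lay between 28105021 and 32055565 counts. Parp2, the deleted gene, had 40.5, 36.4 and 37.5 CPM (counts relative to library size, scaled by the trimmed mean of M-values, TMM) in WT replicates 1, 2 and 3, and 14.4, 12.4 and 13.6 CPM in KO replicates 1, 2 and 3. It fell by 1.499 on the log2 scale (SE 0.10, edgeR adjusted p = 0.00201), and the extent of the deletion is not stated in the labels. The libraries differed in what cells they held, as far as marker transcripts tell. The 10 acinar markers summed to 191800, 196910 and 135220 CPM in WT and to 20254, 78982 and 92.6 CPM in KO, so the tissue label fits KO replicate 3 poorly, although no acinar marker was at 0 across a group. Of these 10, edgeR called 0 at an adjusted p under 0.05 and 1 was lower at an unadjusted p under 0.05, while DESeq2, limma-voom and limma on the deposited log2 values each called 2 lower. A set of 25 digestive enzyme genes took 27.2%, 29.0% and 22.4% of all counts in WT and 4.25%, 14.2% and 0.0355% in KO. All 9 fat cell markers rose, from sums of 709 to 1528 CPM to sums of 9266 to 12159 CPM, as did all 5 B cell and all 5 T cell markers. B cell sums went from 85.8 to 248.5 CPM in WT to 852 to 1253 CPM in KO, and T cell sums from 36.4 to 99.99 CPM to 249 to 564 CPM. Islet sums were 1238 to 3321 CPM in WT and 1.54 to 547 CPM in KO, with 1 of 6 islet markers lower. Erythroid sums were 60.8 to 141 CPM and 156 to 460.2 CPM, with 2 of 6 tested markers higher. Brown fat, liver, skeletal muscle and testis markers summed to under 100 CPM in every library. In bulk tissue, fewer cells of a type and less RNA per cell cannot be told apart, and the part that cell content plays in the carrier values below was not tested.

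Of the 46 carrier genes, 41 passed the filter on low counts and were tested, and 17 of them (41.5%) passed an adjusted p of 0.05. Over all 17652 genes tested the share called was 53.0%, and the difference between these shares was not tested. There were 10 carriers higher in KO (24.4%, against 28.0% of all genes) and 7 lower (17.1%, against 25.0%). The median log2 fold change of the 41 was 0.02, the same as over all genes, and the median size of the change was 0.38 against 0.61. The 2 groups of libraries did not overlap for 27 carriers (65.9%), beside 68.1% of all genes tested. Only 4 higher and 2 lower carriers reached a log2 fold change of 1 or more in size, among them Slc25a34, Slc25a53 and Slc25a20 (higher) and Slc25a13 and Slc25a39 (lower). Genes of the other strand, Gm11788 and Naif1, share 228 exon bases with Slc25a10 and 379 with Slc25a25, and the strand setting of the counting is not given in the sources used here.

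The balance of the family depended on scaling and on single libraries. Summed over all 46 genes, the level was 2190, 2175 and 2261 CPM in WT and 1977, 2081 and 2136 CPM in KO after TMM scaling, which is lower in every KO library. As a share of raw counts it was 0.180%, 0.180% and 0.218% in WT and 0.235%, 0.218% and 0.259% in KO, which is higher in KO replicates 1 and 3 than in any WT library. Such a share also depends on the counts that other genes take. The 25 digestive enzyme genes took 27.2%, 29.0% and 22.4% of counts in WT and 4.25%, 14.2% and 0.0355% in KO. TMM scaling without digestive enzyme genes gave 9 carriers higher and 9 lower. With library totals as the only scaling, which shifted the median of all genes by 0.40, 20 carriers were higher and 4 lower, so that 83.3% of the calls were higher against 58.8%. For all genes the same shift was to 77.6% from 52.8%. Leaving out WT replicates 1, 2 or 3 left 4, 4 and 6 carriers higher, and leaving out KO replicates 1 or 3 left 5 in each case, against 9 without KO replicate 2. The lower count stayed between 6 and 10, and the share of all genes called lay between 34.1% and 55.6% in these smaller fits. Calls for 9 carriers, among them Slc25a3, Slc25a5, Slc25a15, Slc25a20, Slc25a25, Slc25a28, Slc25a39 and Slc25a53, held whichever library was left out.

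**Figure D1:**
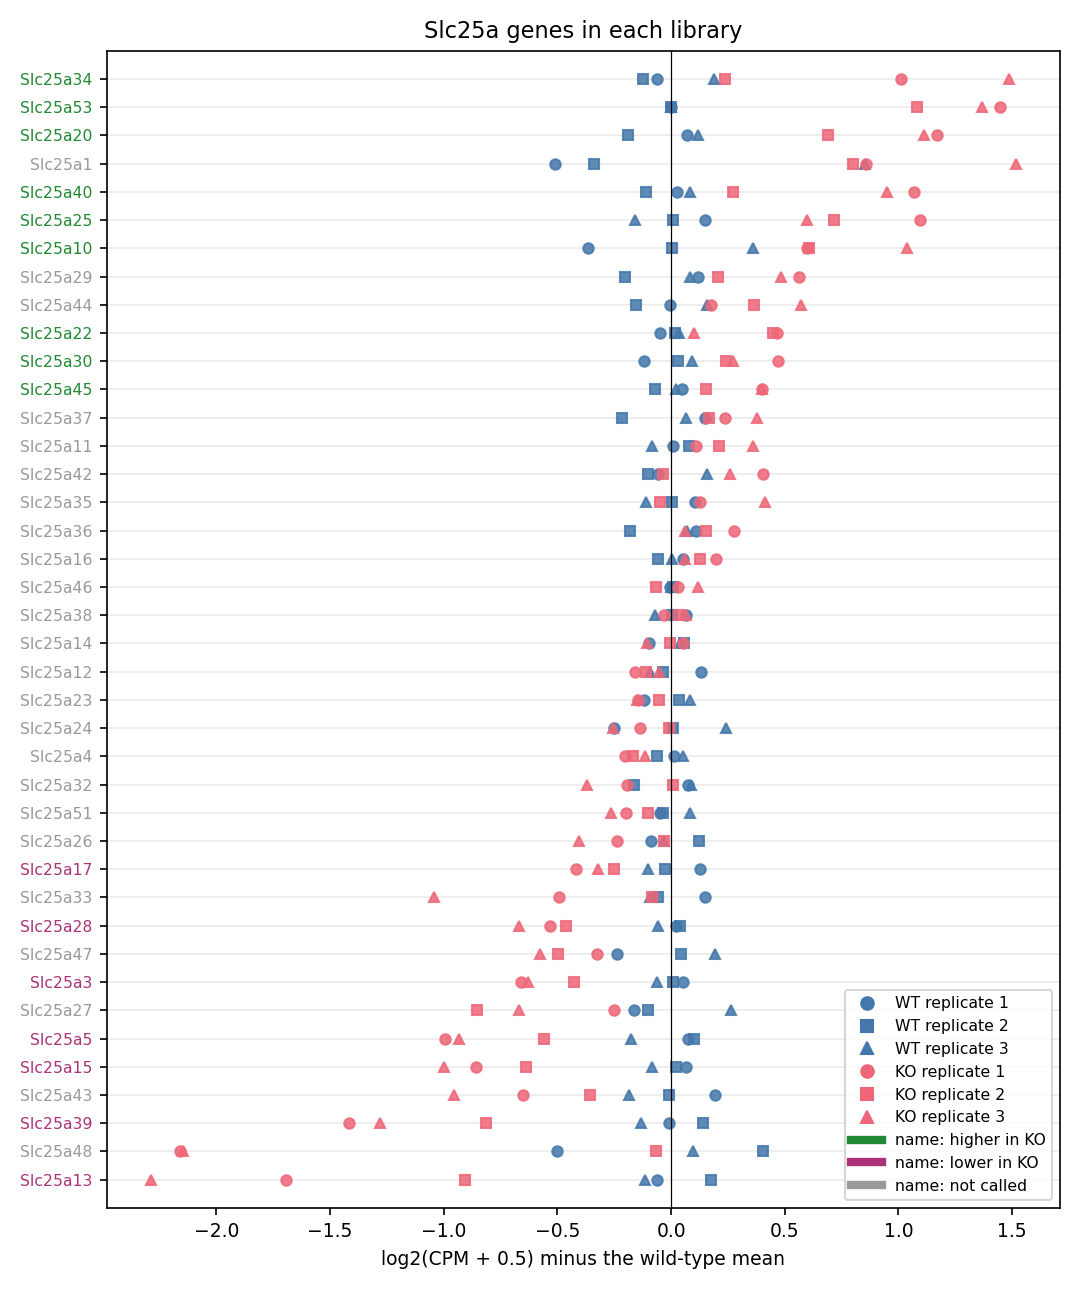
Each row is a tested Slc25a gene reported here and each point 1 library, placed on the x axis by its log2(CPM + 0.5) minus the mean of the 3 WT libraries, with WT in blue and KO in red. Names are green for higher in KO, purple for lower and grey for not called. The 3 WT points of Slc25a53 fall on one another, KO replicate 2 (square) is often the KO point nearest to WT, and WT replicate 3 (triangle) lies among the KO points for Slc25a1.

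The adenine nucleotide and phosphate carriers, which supply and drain the ATP synthase, had 2 lower members and 1 higher of 6 tested. Beside the counts of this group and of the groups and lists below stand 28.0% of all genes tested called higher and 25.0% lower. No group or list was tested against these shares. Slc25a5 encodes the ADP/ATP translocase of dividing cells. It had 193, 196 and 162 CPM in WT and 91.7, 124 and 95.7 CPM in KO. All 3 KO libraries lay below all 3 WT libraries, and the log2 fold change was -0.82 (SE 0.15, adjusted p = 0.00602). Slc25a3, the phosphate carrier that feeds the same reaction, had 437, 424 and 403 CPM in WT and 266.5, 313.04 and 272 CPM in KO. The groups stood apart here too, with a log2 fold change of -0.57 (SE 0.10, adjusted p = 0.00637), but with library totals only it was -0.17 (adjusted p = 0.224). Slc25a4, the ADP/ATP translocase most abundant in heart and muscle, had 145, 137 and 148 CPM in WT and 124, 127 and 132 CPM in KO. Its groups did not overlap either, yet the difference of -0.16 (SE 0.07) missed the threshold (adjusted p = 0.108). Copies of Slc25a4 and Slc25a5 are alike in sequence and have processed pseudogenes, and how reads with several matches were counted is not given in the sources used here. Slc25a25, a calcium-regulated carrier that exchanges ATP-Mg for phosphate, went the other way. Its values were 25.3, 22.9 and 20.3 CPM in WT and 49.2, 37.7 and 34.6 CPM in KO, all KO libraries above all WT libraries (log2 fold change 0.83, SE 0.16, adjusted p = 0.00749). Its calcium-regulated relatives were not called: Slc25a24 had 23.6, 28.4 and 33.4 CPM in WT and 25.6, 28.0 and 23.6 CPM in KO. Slc25a23 had 62.0, 69.2 and 71.5 CPM in WT and 60.9, 65.0 and 60.7 CPM in KO, and both sets of libraries overlapped.

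Among the carriers of di- and tricarboxylates and glutamate, Slc25a13 fell while Slc25a10 and Slc25a22 rose, of 6 tested. Slc25a13 and Slc25a12 encode citrin and aralar, which both swap matrix aspartate for cytosolic glutamate in the malate-aspartate shuttle. Slc25a13 (ENSMUSG00000015112, chromosome 6, 6041218 to 6217173, GRCm38) had 26.8, 31.6 and 25.8 CPM in WT and 8.30, 14.7 and 5.32 CPM in KO. Its KO libraries were all below WT, with the highest KO value in the library that kept most acinar transcripts, KO replicate 2. Its log2 fold change of -1.57 (SE 0.37, adjusted p = 0.0147) was the largest called fall among the Slc25a genes, and without KO replicate 1 its adjusted p was 0.0637. Slc25a12 had 47.1, 41.9 and 40.3 CPM in WT and 38.5, 39.8 and 41.5 CPM in KO, with overlapping groups (log2 fold change -0.11, SE 0.09, adjusted p = 0.327). Slc25a10, the dicarboxylate carrier that exchanges malate or succinate for phosphate, had 46.3, 59.9 and 76.7 CPM in WT and 90.5, 91.0 and 123.04 CPM in KO. The groups did not overlap (log2 fold change 0.74, SE 0.22, adjusted p = 0.0300), but the adjusted p reached 0.0858 among the fits without WT replicates 1 or 2 or KO replicates 1 or 3. Slc25a22, a glutamate carrier, had 41.9, 43.8 and 44.4 CPM in WT and 60.0, 59.3 and 46.5 CPM in KO. KO replicate 3 was only just above WT, and the call (log2 fold change 0.35, SE 0.12, adjusted p = 0.0441) was lost on leaving out any library but KO replicate 3, with an adjusted p of up to 0.135, and under 3 other alternatives (no count filter, limma-voom, and scaling without digestive enzyme genes).

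Slc25a1, the citrate carrier that exports the carbon for fatty acid synthesis, had the widest spread of the abundant members. Its values were 67.4, 75.9 and 174 CPM in WT and 175, 168 and 277 CPM in KO. WT replicate 3 was level with 2 of the KO libraries, so the groups overlapped and the log2 fold change of 0.96 (SE 0.42) was not called (adjusted p = 0.0998). Without WT replicate 3 it was 1.52 (adjusted p = 0.0124), and the DESeq2 Wald test called it with all 6 libraries (adjusted p = 0.0284). Acly, the cytosolic enzyme that splits the exported citrate, and Me1, which makes NADPH for the same synthesis, showed the same library apart. Acly had 227, 245 and 919 CPM in WT and 438, 801 and 1367 CPM in KO, and Me1 25.3, 24.9 and 228 CPM in WT and 143, 138 and 459 CPM in KO, neither called. WT replicate 3 also had the highest fat cell marker sum of the WT libraries, 1528 CPM beside 753 and 709 CPM, and the part of fat cells in these values was not tested. Slc25a11, the oxoglutarate and malate exchanger, had 60.9, 64.0 and 57.1 CPM in WT and 65.5, 70.2 and 77.9 CPM in KO, which did not overlap but was not called (log2 fold change 0.23, adjusted p = 0.0811).

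The E-box CACGTG, a sequence that Myc and its partner Max bind, was searched in the RefSeq promoters (GRCm38.p6) because Myc drives this model and Myc mRNA itself was lower in KO. Myc had 256, 266 and 391.5 CPM in WT and 83.4, 177 and 51.4 CPM in KO (log2 fold change -1.55, SE 0.48, adjusted p = 0.0366), a call lost on leaving out any library but KO replicate 2, with an adjusted p of up to 0.120, with no count filter, and with library totals only (0.0561). Within KO the Myc values had the same order as the acinar marker sums (20254, 78982 and 92.6 CPM). In WT, replicate 3 had the lowest acinar sum and the most Myc. The part of acinar cell content in the Myc values was not tested, nor was any link from Myc to the carriers. Of the 46 carriers, 35 had a promoter, as 1 or more windows of 300 bases with 250 before the start. A gene counted as holding a motif if any of its windows did, among the carriers and in the background. Both shares therefore also depend on the number of windows per gene. The E-box reads the same on both strands, and 7 of the 35 (20%) held it, beside 8.09% of 27025 genes with a promoter. These were 2 of 7 lower members (Slc25a13 and Slc25a15), 0 of 9 higher members, 4 of 16 not called (Slc25a1, Slc25a14, Slc25a33 and Slc25a36) and 1 of 3 not tested (Slc25a31). Slc25a15 held it in the window with the bases at chr8:22398278-22398527, within the annotated gene, and not in that at chr8:22398622-22398871. The motif GCGCATGCG, the core of the site of the mitochondrial regulator NRF1, was in 0 of 35, beside 1.95% of all, with either strand searched. For both motifs the background held every gene with a promoter, tested or not, so it was not matched to the carriers in expression. The 250 bases before the start are shown 5′ to 3′ on the minus strand for the aspartate and glutamate pair, of which 1 gene fell and the other was not called, and for the citrate carrier, with any E-box in capitals. That of Slc25a13 lies at chr6:6217174-6217423, with the E-box beginning 125 bases before the start, that of Slc25a12 at chr2:71367756-71368005 with none, and that of Slc25a1 at chr16:17928220-17928469 with the E-box beginning 239 bases before the start.
Slc25a13: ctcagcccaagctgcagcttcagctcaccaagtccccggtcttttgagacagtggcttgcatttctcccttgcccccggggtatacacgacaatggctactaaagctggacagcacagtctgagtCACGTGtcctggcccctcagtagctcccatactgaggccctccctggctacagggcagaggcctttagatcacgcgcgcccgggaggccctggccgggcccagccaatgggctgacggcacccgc
Slc25a12: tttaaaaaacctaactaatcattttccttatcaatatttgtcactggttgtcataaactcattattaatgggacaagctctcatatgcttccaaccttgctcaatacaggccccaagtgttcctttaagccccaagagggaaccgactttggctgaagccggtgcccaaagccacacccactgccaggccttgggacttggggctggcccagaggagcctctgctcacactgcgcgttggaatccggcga
Slc25a1: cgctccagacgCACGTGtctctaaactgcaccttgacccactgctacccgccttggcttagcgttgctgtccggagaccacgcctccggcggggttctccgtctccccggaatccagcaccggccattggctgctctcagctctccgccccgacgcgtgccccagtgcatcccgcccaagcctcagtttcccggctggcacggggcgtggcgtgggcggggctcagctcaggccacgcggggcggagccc
A match is a description of the letters and not a measured binding site.

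Carriers of other amino acids, acylcarnitine and choline had 2 higher members and 1 lower of 7 tested. Slc25a20 takes fatty acylcarnitines into the matrix for oxidation in exchange for carnitine. It had 21.5, 17.8 and 22.3 CPM in WT and 46.6, 33.3 and 44.7 CPM in KO, and every KO library was above every WT library. The rise was 1.02 on the log2 scale (SE 0.16, adjusted p = 0.00431) and held in every other fit at the 0.05 threshold. The enzymes that make and unmake acylcarnitine gave 2 higher of 3 tested: Crat rose by 1.42 (SE 0.17, adjusted p = 0.00242) and Cpt2 by 0.58 (SE 0.10, adjusted p = 0.00565). Cpt1a, the regulated entry step, had a log2 fold change of -0.15 and was not called (adjusted p = 0.252). Slc25a15, which brings ornithine into the matrix, had 31.3, 30.3 and 28.1 CPM in WT and 16.2, 19.0 and 14.7 CPM in KO. Its groups were well apart, with a log2 fold change of -0.84 (SE 0.12, adjusted p = 0.00339), the smallest adjusted p of the lower members. Slc25a45 rose slightly, from 28.3, 26.0 and 27.8 CPM to 36.2, 30.5 and 36.2 CPM (log2 fold change 0.33, SE 0.10, adjusted p = 0.0337). That call needed WT replicates 1, 2 and 3 and KO replicates 1 and 3, with an adjusted p of up to 0.117 when one of them was left out. Slc25a48, linked to choline import, had 3.72, 7.39 and 5.89 CPM in WT and 0.838, 5.21 and 0.848 CPM in KO. KO replicate 2 lay inside the WT range and the other KO libraries far below it, and the difference of -1.31 (SE 0.79) was not called (adjusted p = 0.202). The carriers of basic amino acids (Slc25a29), branched-chain amino acids (Slc25a44) and glycine (Slc25a38) had log2 fold changes of 0.46, 0.38 and 0.02 and were not called. The groups did not overlap for Slc25a29 (adjusted p = 0.0937) or Slc25a44 (adjusted p = 0.0547), but did for Slc25a38 (adjusted p = 0.844). Slc25a44 was called higher with at least 10 counts in every library, with library totals only, and without KO replicate 1.

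The 9 carriers of cofactors, pyrimidine nucleotides and folate were the group with fewest calls for its size, 2. Slc25a17, the peroxisomal carrier of coenzyme A and related cofactors, had 62.1, 55.7 and 52.9 CPM in WT and 42.4, 47.6 and 45.4 CPM in KO. All KO libraries were lower (log2 fold change -0.33, SE 0.09, adjusted p = 0.0254), but with library totals only the value was 0.07 (adjusted p = 0.598). Without WT replicates 1 or 2 or KO replicates 1 or 3 its adjusted p was up to 0.0771. Slc25a33 and Slc25a36 both carry pyrimidine nucleotides, and neither was called. Slc25a33 had 12.2, 10.6 and 10.3 CPM in WT and 7.68, 10.3 and 5.09 CPM in KO, and Slc25a36 had 82.6, 67.4 and 80.2 CPM in WT and 92.6, 85.1 and 79.8 CPM in KO. The NAD carrier Slc25a51, the most abundant of the group per exon length, had 110.2, 111 and 121 CPM in WT and 99.5, 106 and 94.8 CPM in KO, not overlapping but not called (log2 fold change -0.19, adjusted p = 0.0931). The S-adenosylmethionine carrier Slc25a26, the folate and FAD carrier Slc25a32, and Slc25a16 and Slc25a42, tied to coenzyme A, were not called, with log2 fold changes between -0.23 and 0.22.

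Iron and glutathione carriers moved in both directions, with 2 lower and 1 higher of 4. Slc25a39 (ENSMUSG00000018677, chromosome 11, 102402985 to 102407946, GRCm38) encodes a carrier of glutathione into mitochondria. It had 211, 233.5 and 193 CPM in WT and 79.1, 120.2 and 87.0 CPM in KO. All KO libraries were below all WT libraries, with a log2 fold change of -1.16 (SE 0.18, adjusted p = 0.00390), and it was -0.76 with library totals only. Slc25a40, its close relative, had 7.08, 6.40 and 7.41 CPM in WT and 15.1, 8.49 and 13.9 CPM in KO. It was higher in each KO library (log2 fold change 0.84, SE 0.24, adjusted p = 0.0248), least so in KO replicate 2, and the adjusted p was up to 0.0825 on leaving out any 1 of the WT libraries or KO replicate 1 or 3. Slc25a28 and Slc25a37 encode mitoferrin 2 and mitoferrin 1, which bring in iron for haem and iron-sulphur clusters. Slc25a28 had 54.7, 55.4 and 51.8 CPM in WT and 37.1, 39.0 and 33.7 CPM in KO. The groups were apart, with a log2 fold change of -0.56 (SE 0.09, adjusted p = 0.00402), which became -0.16 and not called with library totals only (adjusted p = 0.221). Slc25a37, the form used in red cell precursors, had 75.5, 58.4 and 71.2 CPM in WT and 80.2, 76.4 and 88.5 CPM in KO, which was not called (log2 fold change 0.26, SE 0.12, adjusted p = 0.111). The erythroid marker sum was highest in KO replicate 2, at 460.2 CPM, and its part in the Slc25a37 level was not tested.

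The uncoupling-protein-like, outer membrane and unassigned members had 3 higher and 0 lower of 9 tested; at an unadjusted p under 0.05 a further 3 were lower, Slc25a43, Slc25a27 and Slc25a47. Slc25a53 (ENSMUSG00000044348, chromosome X, 136981116 to 137038302, GRCm38), whose cargo is not known, had 6.10, 6.10 and 6.10 CPM in WT and 17.5, 13.5 and 16.6 CPM in KO. The WT values were nearly identical, but they rest on 156, 142 and 177 counts, so their closeness is not a measure of the spread between animals. Every KO library was more than 2 times higher, with a log2 fold change of 1.38 (SE 0.14) and the smallest adjusted p among the Slc25a genes, 0.00210. Slc25a34, a carrier of unsettled cargo, had few reads, with 12, 10 and 19 counts in WT and 57, 22 and 91 in KO. These were 0.470, 0.430 and 0.654 CPM in WT and 1.54, 0.694 and 2.34 CPM in KO, where KO replicate 2 was just above WT replicate 3. Its log2 fold change of 1.55 (SE 0.49, adjusted p = 0.0377) was the largest called rise among the Slc25a genes, but limma-voom and limma on the deposited log2 values did not call it. Nor was it called on leaving out any 1 of the WT libraries or KO replicate 1 or 3, with an adjusted p of up to 0.107. Slc25a30, close to the brain uncoupling-type carrier Slc25a14, had 21.6, 24.0 and 25.1 CPM in WT and 32.8, 27.9 and 28.6 CPM in KO. The rise of 0.33 (SE 0.11, adjusted p = 0.0371) was lost in the same smaller fits, with an adjusted p of up to 0.119, and without the count filter. Slc25a46, which acts in fusion and division of the outer membrane, had 59.4, 59.9 and 59.6 CPM in WT and 60.9, 56.9 and 64.8 CPM in KO, and Slc25a14 a log2 fold change of -0.02. Slc25a43, at 1.53 ± 0.26 CPM in WT and 0.799 ± 0.27 CPM in KO (SD, n = 3 each), was the nearest to the threshold of those not called (log2 fold change -0.94, adjusted p = 0.0511), and 5 alternatives to the scaling, filter or test called it.

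Of the 5 carriers below the count filter, Slc25a31, the ADP/ATP translocase of the testis, had 0, 4 and 3 counts in WT and 26, 1 and 3 in KO, so 1 library held most of its reads. Slc25a2, Slc25a18 and Slc25a21 had between 0 and 10 counts in any library. Slc25a41 had 0 counts in every WT library and 0, 1 and 1 in KO. A count of 0 allows up to 3 counts, and no difference was detectable for these 5 genes at this depth.

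**Figure D2:**
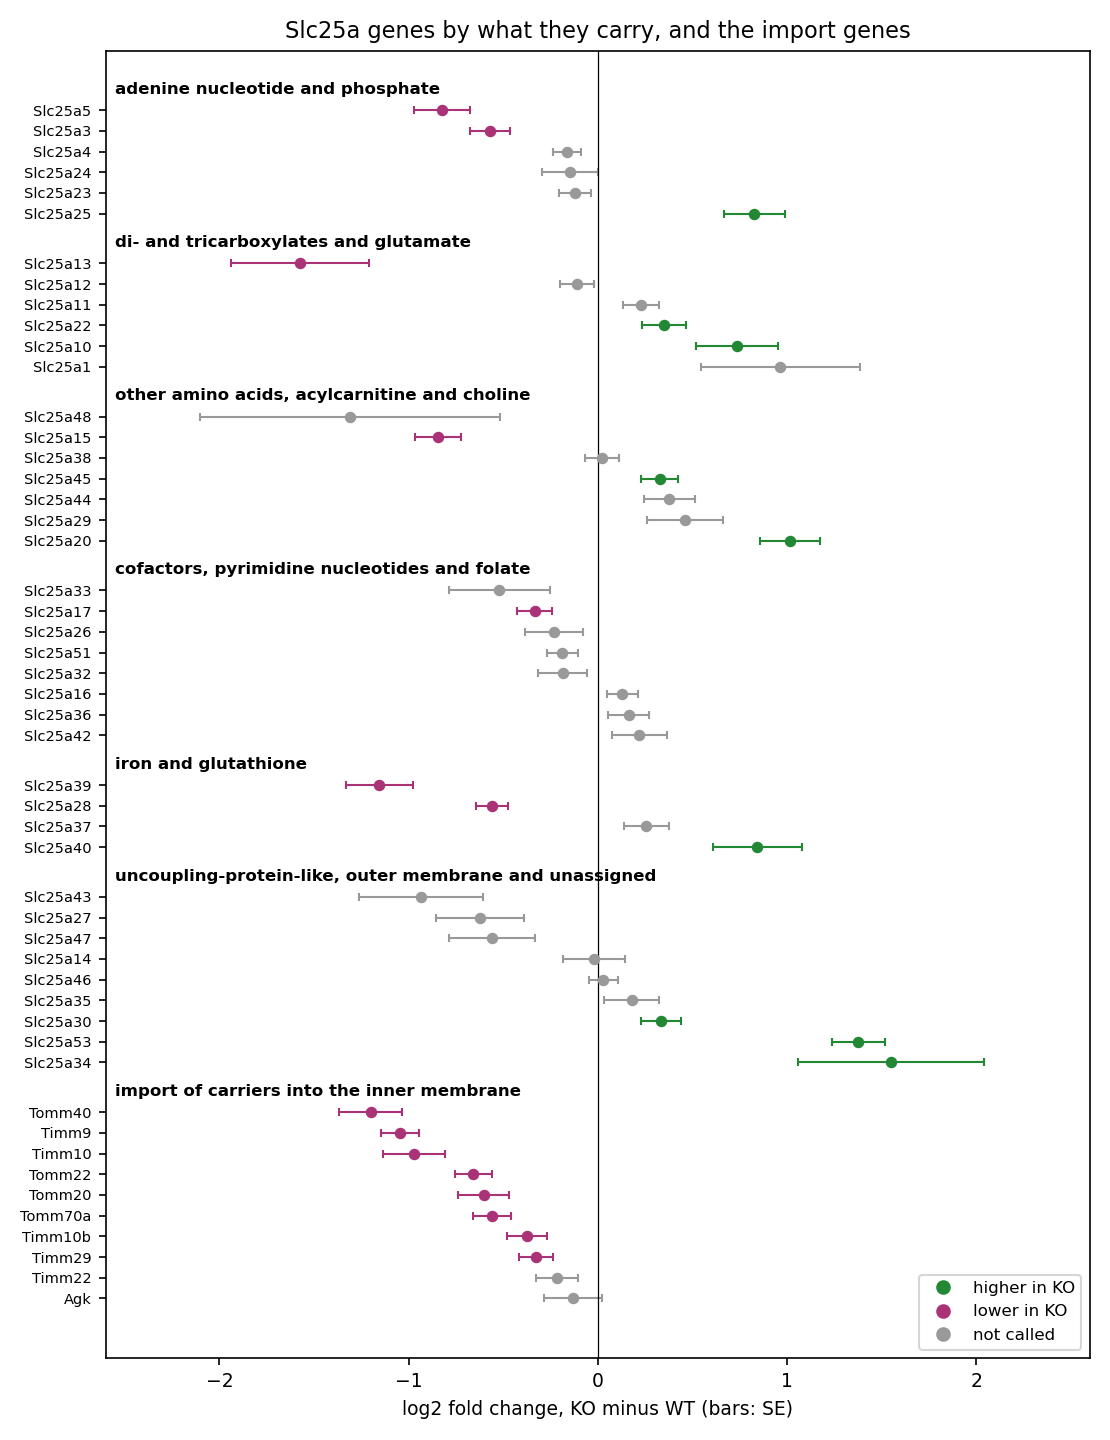
Points are edgeR log2 fold changes (KO minus WT, x axis) with SE bars for the tested Slc25a genes reported here, grouped by what they carry, followed by the 10 genes for import of carriers. Green is higher in KO, purple lower and grey not called. The import genes lie to the left of 0, 8 of them called.

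Count ratios between related carriers within 1 library do not depend on scaling between libraries, so they were compared for 11 pairs, of which 10 had at least 10 counts of each gene in every library. With 3 against 3 libraries the smallest two-sided exact permutation p is 0.10, which 8 pairs reached (adjusted over the 10 pairs, 0.125), so none could pass 0.05. The ratio of Slc25a39 to Slc25a40, the glutathione carriers, was 29.8, 36.5 and 26.1 in WT and 5.23, 14.2 and 6.26 in KO. On the log2 scale it went from 4.93 ± 0.24 to 2.95 ± 0.77 (SD, n = 3 each; exact p = 0.10), the widest shift of the 10, and Slc25a39 still had more counts in every KO library. Aralar over citrin, Slc25a12 to Slc25a13, was 1.76, 1.32 and 1.56 in WT and 4.64, 2.71 and 7.80 in KO, a log2 difference of 1.58 without overlap. Slc25a4 to Slc25a5 was 0.749, 0.698 and 0.917 in WT and 1.36, 1.03 and 1.38 in KO. Slc25a5 therefore had more counts than Slc25a4 in every WT library and fewer in every KO library, by a ratio shift of 0.67 on the log2 scale. Mitoferrin 1 over mitoferrin 2, Slc25a37 to Slc25a28, was 1.38, 1.06 and 1.37 in WT and 2.16, 1.96 and 2.62 in KO, a log2 difference of 0.82. Slc25a34 to Slc25a35 was 0.0265, 0.0261 and 0.0431 in WT and 0.0857, 0.0437 and 0.106 in KO, a log2 difference of 1.25. Here WT replicate 3 and KO replicate 2 nearly met, and Slc25a34 had only 10 to 91 counts a library. Slc25a35 shares 1151 exon bases with Rangrf, a gene of the other strand. The ratios of Slc25a24 to Slc25a25, Slc25a33 to Slc25a36 and Slc25a14 to Slc25a30 were lower in KO by -0.95, -0.74 and -0.35 on the log2 scale. The other 2 overlapped: Slc25a24 to Slc25a23 differed by -0.02 (exact p = 1) and Slc25a16 to Slc25a42 by -0.08 (exact p = 0.80).

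**Figure D3:**
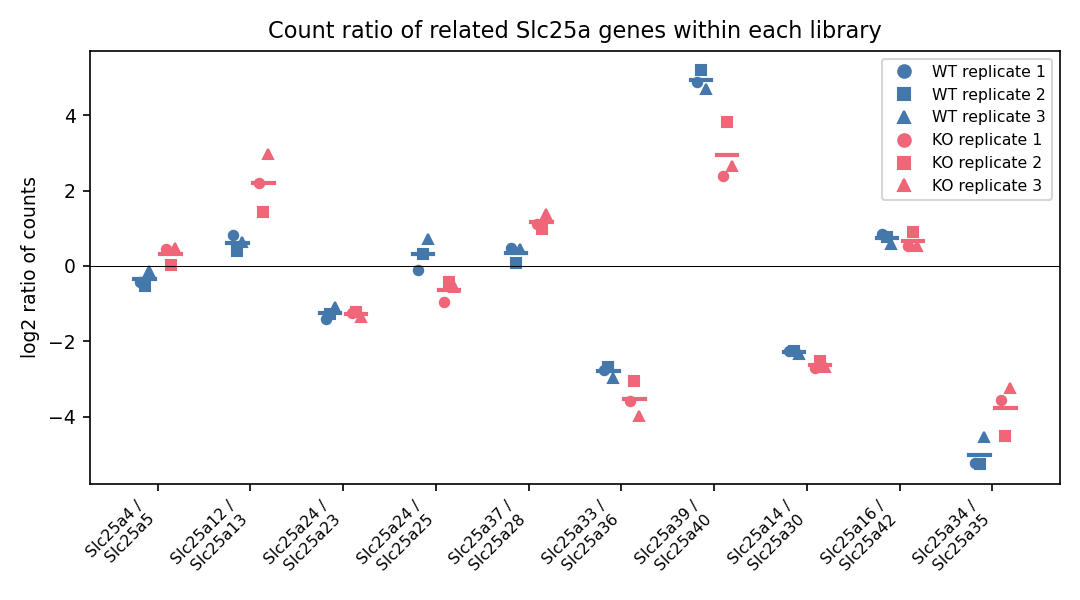
The y axis is the log2 ratio of the counts of 2 related Slc25a genes within 1 library, with 1 symbol per replicate, WT in blue, KO in red and a bar at each group's mean. The Slc25a4 to Slc25a5 points cross 0 between the groups, the Slc25a39 to Slc25a40 points drop from between 4.71 and 5.19 to between 2.39 and 3.82, and only the Slc25a24 to Slc25a23 and Slc25a16 to Slc25a42 groups overlap.

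Levels between genes were compared per kilobase of exon, with the bases of all annotated exons of a gene merged (GENCODE vM21). The order depends on these lengths, which were 5.55 kb for Slc25a3 and 1.646 kb for Slc25a5. In CPM without division by length, Slc25a3 had the highest mean in both groups, 421 in WT and 284 in KO. By the mean over all 6 libraries the first 6 were Slc25a5, Slc25a1, Slc25a3, Slc25a4, Slc25a39 and Slc25a11. In WT the order was led by Slc25a5 at 112 ± 11.6 CPM per kb, followed by Slc25a39 at 77.1 ± 7.32 and Slc25a3 at 75.9 ± 3.07, which differed by less than their SDs, and by Slc25a4 at 60.9 ± 2.45 (SD, n = 3). In KO the highest mean was that of Slc25a1, at 95.4 ± 28.2 CPM per kb, then Slc25a5 at 63.1 ± 10.8, Slc25a4 at 54.4 ± 1.69 and Slc25a3 at 51.2 ± 4.56. Slc25a4 differed from Slc25a5 and from Slc25a3 by less than the larger SD of each pair. Slc25a39 was lower there, at 34.6 ± 7.91 CPM per kb, level with Slc25a11 at 33.6 ± 2.96. Of all counts on the 46 genes, Slc25a3 took 19.9%, 19.5% and 17.8% in WT and 13.5%, 15.0% and 12.8% in KO, while Slc25a1 went from 3.08%, 3.49% and 7.69% to 8.84%, 8.08% and 13.0%. Slc25a4 held its share, with 6.30% to 6.60% in WT and 6.12% to 6.29% in KO.

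**Figure D4:**
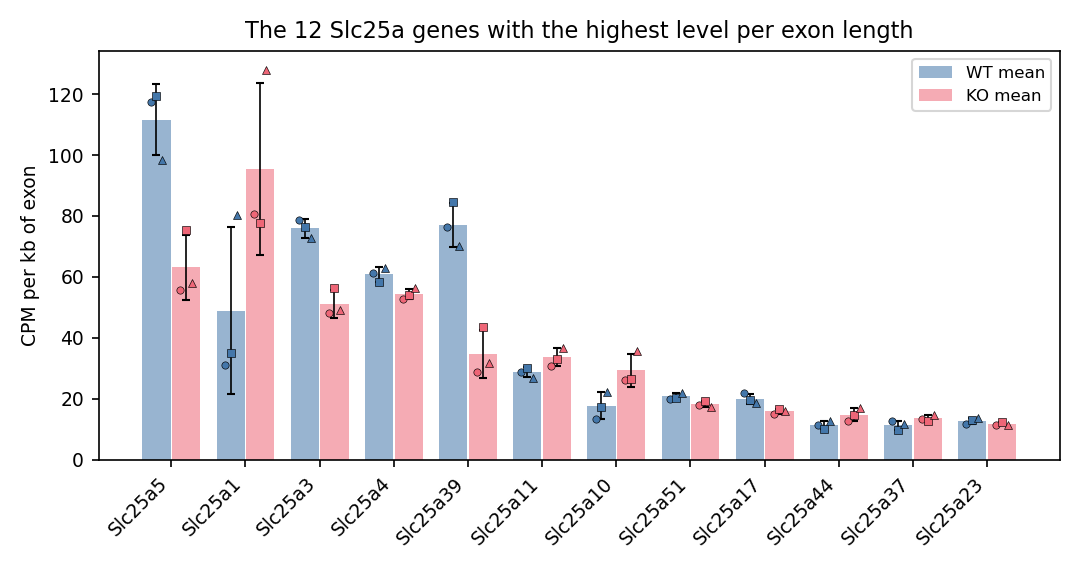
Bars are means and error bars SDs of the level in CPM per kb of exon (y axis) over 3 libraries a group, WT in blue and KO in red, with each library as a symbol (circle, square and triangle for replicates 1, 2 and 3), for the 12 Slc25a genes with the highest mean. Slc25a5 leads in WT at 112 CPM per kb and Slc25a1 in KO at 95.4 CPM per kb, with the WT replicate 3 of Slc25a1 at the height of 2 KO libraries.

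The 3 KO libraries did not stand equally far from WT. KO replicate 2 was the KO library nearest to the WT mean for 13 of the 17 called carriers, and KO replicates 1 and 3 for 2 each. KO replicate 2 was farthest from WT for 0 of them, KO replicate 1 for 10 and KO replicate 3 for 7. The same order was not counted over all called genes, so it is not shown to be particular to the carriers. Without KO replicate 2, 55.6% of all genes tested were called, the largest share among the fits that left out 1 library. Relative to the WT mean, the median log2(CPM + 0.5) of the 10 higher carriers was 0.95, 0.53 and 0.99 in KO replicates 1, 2 and 3, and that of the 7 lower carriers was -0.86, -0.56 and -0.93. These members were called from the same libraries, so the medians describe their order only. KO replicate 2 also had the most acinar transcripts of the KO libraries, 78982 CPM of the 10 markers beside 20254 and 92.6 CPM, and the fewest fat cell transcripts, 9266 CPM beside 12159 and 11630 CPM.

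Of the 10 genes that import carriers into the inner membrane 8 fell and 0 rose (median of the 10 log2 fold changes, -0.58). Over all genes tested 25.0% fell and 28.0% rose, and the difference between these shares was not tested. With library totals only, 3 of the 10 import genes fell (Timm9, Timm10 and Tomm40) and Timm10b and Timm29 had log2 fold changes of 0.02 and 0.07. Leaving out 1 library left between 5 (without KO replicate 1) and 7 lower. Timm9, a small TIM chaperone that guides carriers across the intermembrane space, had 38.8, 33.2 and 37.0 CPM in WT and 17.7, 18.8 and 16.3 CPM in KO. It fell by 1.05 (SE 0.10, adjusted p = 0.00201), with the groups far apart. Its partner Timm10 fell by 0.97 (adjusted p = 0.00510), the TOM pore Tomm40 by 1.20 (SE 0.17, adjusted p = 0.00323) and its receptor Tomm22 by 0.66 (adjusted p = 0.00362; 0.0636 with library totals only). Timm22 and Agk, of the TIM22 complex that inserts carriers, had log2 fold changes of -0.22 and -0.13 and were not called.

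Other transport proteins of the mitochondrial membranes gave 2 higher and 7 lower of 12, or 4 and 2 with library totals only. In the main fit 28.0% of all genes tested were higher and 25.0% lower. The outer membrane pore Vdac1 fell by 0.71 (adjusted p = 0.00328), the serine carrier relative Sfxn2 by 1.003 (adjusted p = 0.00576) and the calcium uniporter subunit Smdt1 by 0.59 (adjusted p = 0.00639; 0.221 with library totals only). Mpc1, a subunit of the pyruvate carrier, rose by 1.43 (SE 0.42, adjusted p = 0.0287), from 3.05, 3.44 and 4.31 CPM to 7.35, 5.74 and 16.0 CPM, and its adjusted p was up to 0.0884 without any 1 of the WT libraries or KO replicate 1. Limma-voom with all 6 libraries did not call it. Leaving out 1 library left 0 to 2 higher and 3 to 7 lower in this list, with 3 lower without KO replicate 1.

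Family members under other symbols gave 1 higher of 4 tested. Ucp3, a relative of the fat cell uncoupling protein, had 0.978, 1.42 and 6.54 CPM in WT and 20.7, 20.8 and 25.8 CPM in KO. It rose by 2.90 on the log2 scale (SE 0.73, adjusted p = 0.0199), a call lost without WT replicate 2, KO replicate 1 or the count filter (adjusted p up to 0.0640). Ucp1, the uncoupling protein of brown fat, was between 0 and 0.135 CPM in every library. Ucp2, Mtch1 and Mtch2 had log2 fold changes of 0.24, -0.19 and -0.04 and were not called.

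Enzymes that work with the carriers on either side of the membrane were read from lists in the same way, beside 28.0% of all genes tested higher and 25.0% lower. Of the malate-aspartate and citrate shuttle, 3 of 7 fell and none rose. Got2 and Got1, the mitochondrial and cytosolic aspartate aminotransferases that pair with Slc25a12 and Slc25a13, fell by 0.93 (SE 0.10, adjusted p = 0.00213) and by 1.09 (SE 0.16, adjusted p = 0.00346), and Mdh2 by 0.53 (adjusted p = 0.00513; 0.421 with library totals only). Without WT replicate 3, 2 genes of this list were higher. Of the mitochondrial folate and methionine cycle 3 of 5 fell, led by Shmt2, which makes glycine and a one-carbon unit from serine, with a log2 fold change of -1.76 (SE 0.19, adjusted p = 0.00213). Mthfd2 fell by 1.08 and Mthfd1l by 0.55, the latter not called with library totals only (adjusted p = 0.231), whereas the folate carrier Slc25a32 had a log2 fold change of -0.19 and was not called. Haem and iron-sulphur cluster synthesis was mixed, with 4 higher and 3 lower of 10. The haem enzyme Cpox fell by 1.43 (adjusted p = 0.00355) and Nfs1, the cysteine desulphurase, by 0.56 (adjusted p = 0.00775; 0.205 with library totals only). Alas1, the first enzyme of haem synthesis outside red cells, rose by 0.89 (adjusted p = 0.0175; up to 0.0575 without WT replicates 2 or 3), and the cluster scaffold Iscu by 0.53 (adjusted p = 0.0112). Leaving out WT replicates 1, 2 or 3 or KO replicate 1 left 2, 1, 1 and 2 higher in that list. Alas2, the red cell form of Alas1, also rose, from 7.79, 3.44 and 7.51 CPM to 11.7, 28.8 and 11.9 CPM, and it is 1 of the 2 erythroid markers that were higher. That call was lost on leaving out any library but KO replicate 3, with an adjusted p of up to 0.104, and also with no count filter and under limma-voom.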

How the data were processed

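RNA of 6 libraries, 1 per animal, was sequenced after stranded mRNA library preparation, per the labels' protocols. The authors deposited whole-number read counts per gene, not normalized, and a table of log2 values, which equal the log2 of 1 plus each count over its DESeq2 size factor to within 5.3e-14. The submitters' processing notes name the build GRCm38 and the tools STAR 2.5.3a, DESeq2 1.28.1 and FastQC 0.11.5, without their roles. Not given in the sources used here are the counting program, its strand setting and the annotation release. In GENCODE vM21, in which all 46 carriers had the deposited coordinates and which gave exon lengths, 12 carriers share exon bases with a gene of the other strand and 2 with one of the same strand. Groups came from the genotype label, and replicates were numbered in accession order. Libraries of 1 group differed by a chi-square per degree of freedom of 29.1 to 461 over genes with at least 20 counts, so none repeated another.

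The counts were tested with the edgeR 4.0.16 quasi-likelihood F-test (R 4.3.3; robust, TMM scaling, default group-wise filter, genotype alone), with Benjamini-Hochberg adjustment over 17652 genes and a threshold of 0.05. Each SE is the absolute log2 fold change over the square root of its F value. Calls and fold changes were also tried on simulated counts in which few genes changed and rises and falls were balanced. That trial did not cover the SE or changes as wide as those between these groups. Alternatives were other scalings (DESeq2 size factors, library totals, and TMM without 64 genes whose symbols start like those of digestive enzymes), other filters, DESeq2 1.42.0, limma 3.58.1 (voom, and limma-trend on the deposited log2 values), a threshold of 0.01, and leaving out each library. Named by rule were carriers called with a log2 fold change of at least 1, the 6 highest per exon length, pairs with a called gene, the called carrier of smallest p in each role group and direction, and up to 4 called genes of each list. The result for 1 carrier is not reported here, though counts over the family include it. Other genes were named after their values were seen. The carriers, gene lists and markers were chosen with earlier results of these data known.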

Additional observations from a re-analysis of the deposited data

How the results depend on the processing

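The count of carriers called moved with the scaling, the threshold and single libraries. With library totals only, 20 carriers were higher and 4 lower with a median log2 fold change of 0.43, 7475 of all genes were higher and 2160 lower, and 15 genes of the non-carrier lists were higher and 11 lower against 9 and 24. Slc25a17 then turned to 0.068 (adjusted p = 0.598), and 8 carriers not called also changed sign. At an adjusted p under 0.01, 4 carriers were higher, and Slc25a3, Slc25a5, Slc25a15, Slc25a28 and Slc25a39 were the carriers still lower. Of all genes, 2766 and 2103 were then higher and lower, because the threshold is stricter. DESeq2 size factors, TMM without digestive enzyme genes, the other filters, DESeq2 and limma gave 8 to 11 carriers higher and 7 to 9 lower.

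Leaving out 1 library gave 4 to 9 carriers higher and 6 to 10 lower, a median of -0.01 to 0.04, 3602 to 5125 of all genes higher and 2543 to 5032 lower, and 3 to 8 list genes higher and 17 to 23 lower. Without KO replicate 2, which was nearest to WT, Slc25a33, Slc25a43 and Slc25a48 were also lower. No paired analysis was possible because the labels give no number that WT and KO animals share.

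With 3 animals a group, small differences could not be resolved, and the 5 carriers with low counts were left out by the filter. Of the 17 calls, 7 held in every alternative other than the 0.01 threshold. Ratios of related carriers cannot pass 0.05 with 3 animals a group.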
